A study of Homo sapiens with 9 samples.

Results

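Liver-identity transcription factors are the DNA-binding proteins that keep a hepatocyte a hepatocyte, and 8 of them were followed here through glutamine (Gln) starvation of HepG2 cells. They are HNF4A, HNF4G, FOXA1, FOXA2, FOXA3, NR1H4, NR5A2 and PROX1, taken by name as 8 of the 22587 genes of the expression table. All 8 passed the filter on low values that 11880 genes of the table passed. HepG2 is a human liver tumour line with many features of hepatocytes. RNA-seq covered 3 libraries of cells in normal medium with Gln added, 3 of cells after 12 h of Gln deprivation and 3 after 24 h, and deprivation began 24 h after seeding in high-glucose DMEM. The labels name GlutaMAX, a stable dipeptide source of Gln, as the supply of the cells with Gln added, whereas the treatment protocol places it in the Gln-free medium. Both deprived groups were compared with the same 3 libraries, for which the labels give no time in culture, so the comparisons share their control libraries, and a single line stands behind all values.

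HNF4A and HNF4G are nuclear receptors that bind the promoters and enhancers of many genes for plasma proteins, lipoproteins and coagulation factors, and HNF4A is required for hepatocyte differentiation. FOXA1, FOXA2 and FOXA3 are forkhead proteins known as pioneer factors, because they bind their sites in closed chromatin and let other factors follow. NR1H4, also called FXR, is the bile acid receptor, NR5A2, also called LRH-1, drives genes of bile acid and cholesterol handling, and PROX1 is a homeobox protein of liver development that binds HNF4A and NR5A2 as a corepressor. These factors regulate each other's genes, and NR0B2, also called SHP, is a target of NR1H4 and a repressor of NR5A2 and HNF4A activity.

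The libraries held 29618771 to 36258403 fragments on genes, recovered from the steps of the deposited FPKM (fragments per kilobase of transcript and depth of the library). The members rested on 687 to 16731 fragments per library. The 10 hepatocyte markers were all expressed, with a summed 10488 to 11847 FPKM, and ALB stood at 3230 to 3908 FPKM. Of the markers of other cells, endothelial genes summed to at most 0.427 FPKM, and the bile duct keratin KRT7 was at or near 0. The 6 bile duct markers summed to 874 to 910 FPKM with Gln added, 878 to 898 FPKM at 12 h and 913 to 986 FPKM at 24 h, mostly SPP1, and within them SOX9 rose while KRT19 fell. Stellate cell markers summed to 35.1 to 36.7, 23.5 to 26.4 and 22.2 to 22.4 FPKM, almost all ACTA2. Within them PDGFRB, under the filter, went the other way, with means of 0.156, 0.385 and 0.667 FPKM. Immune markers summed to 37.4 to 37.9, 29.7 to 32.9 and 22.5 to 27.0 FPKM, almost all CD68. Intestinal and pancreatic markers summed to 67.8 to 69.4, 55.1 to 58.2 and 61.9 to 66.8 FPKM, almost all VIL1. No marker in the table was at 0 in all libraries, but CDX1, INS, PRSS1, KDR, PTPRC and CD3E were listed and absent from it. The part of these markers in the results was not tested. Libraries of a group varied little, with a median coefficient of variation for genes above 10 FPKM of 2.84% under Gln added, and 4.03% and 4.37% under 12 h and 24 h of deprivation. In bulk RNA, fewer cells with a transcript and less of it per cell cannot be told apart.

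After 12 h of Gln deprivation FOXA2, FOXA3, NR1H4, NR5A2 and HNF4G rose, FOXA1 fell, and HNF4A and PROX1 did not pass the test. After 24 h FOXA2, FOXA3, NR1H4 and NR5A2 were still higher than with Gln added, and FOXA1 was still lower. A gene was called when its adjusted p was under 0.05 (limma on log2(FPKM + 0.1), with Benjamini-Hochberg adjustment over the 11880 genes tested). By this rule 6 of 8 members were called at 12 h, against 60.2% of all genes tested, so the number of calls alone does not set the members apart. There were 5 members called higher, where 29.1% of all genes were, and 1 called lower, where 31% were. At 24 h 5 of 8 members were called, against 64.7% of all genes, with 4 higher (33% of all genes) and 1 lower (31.7%). The median log2 fold change of the members was 0.29 at 12 h and 0.18 at 24 h, beside -0.02 and 0.01 over all genes tested.

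**Figure D1:**
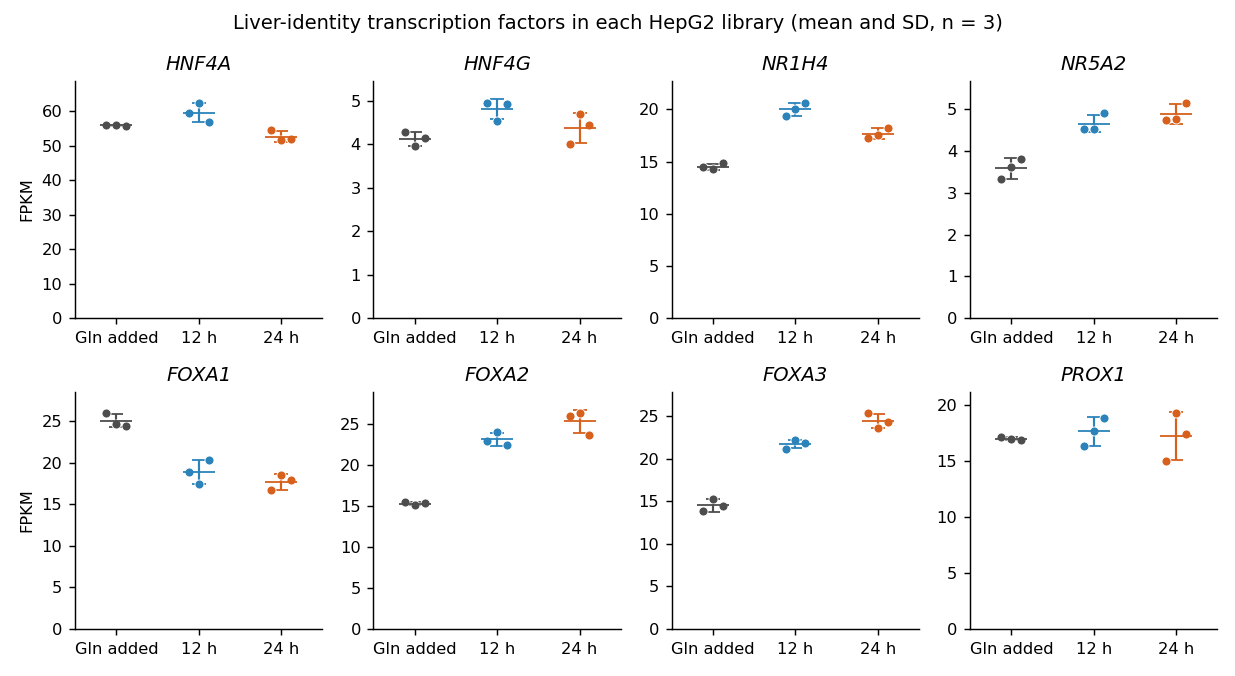
FPKM of each member in each of the 9 HepG2 libraries, with points for libraries, a long bar for the group mean and whiskers for the SD (n = 3), by group on the x axis and with each y axis starting at 0. FOXA2 and FOXA3 lay above all libraries with Gln added in every deprived library, FOXA1 lay below them, and the 9 PROX1 values overlapped between groups.

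The forkhead genes moved in opposite directions. FOXA1 stood at 26.0, 24.7 and 24.5 FPKM in the 3 libraries with Gln added. It stood at 18.9, 17.4 and 20.4 FPKM at 12 h and at 16.7, 18.6 and 17.9 FPKM at 24 h. Every deprived library was below every library with Gln added, while the deprived groups overlapped each other. The fall was -0.41 ± 0.061 (SE) on the log2 scale at 12 h (adjusted p = 0.000194) and -0.50 ± 0.061 at 24 h (adjusted p = 3.46e-05), or 0.755 and 0.707 of the mean with Gln added. Between 12 h and 24 h FOXA1 differed by -0.09 (95% interval -0.23 to 0.04, adjusted p = 0.324).

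FOXA2, which directs both the early liver bud and fasting genes of the adult liver, stood at 15.4, 15.1 and 15.3 FPKM with Gln added. It read 22.9, 23.9 and 22.4 FPKM at 12 h and 25.9, 26.3 and 23.7 FPKM at 24 h. No deprived library came near the control libraries, whose spread was small (SD 0.175 FPKM). The log2 fold change was 0.59 ± 0.047 (SE) at 12 h (adjusted p = 1.87e-06) and 0.72 ± 0.047 at 24 h (adjusted p = 2.8e-07), which is 1.51-fold and 1.65-fold. The step from 12 h to 24 h, 0.13, did not pass the test (adjusted p = 0.0791), but it did when 24 h replicate 3 was left out (0.18, adjusted p = 0.0271).

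FOXA3, the last of the family to come on in the developing gut endoderm, stood at 13.8, 15.3 and 14.5 FPKM with Gln added. It read 21.2, 22.2 and 21.9 FPKM at 12 h and 25.4, 23.6 and 24.4 FPKM at 24 h, with no overlap between any pair of groups. The rise was 0.58 ± 0.046 (SE) at 12 h (adjusted p = 1.92e-06) and 0.75 ± 0.046 at 24 h (adjusted p = 1.88e-07) on the log2 scale. FOXA3 was the 1 member that was higher at 24 h than at 12 h by the direct test, by 0.17 ± 0.046 (adjusted p = 0.028). That last call was lost without 12 h replicate 1 (0.15, adjusted p = 0.0977), 12 h replicate 2 (0.18, adjusted p = 0.0527), 24 h replicate 1 (0.14, adjusted p = 0.0691) or 24 h replicate 3 (0.17, adjusted p = 0.0701). It was also lost with median-ratio scaling between libraries (0.13, adjusted p = 0.0659). By absolute fold change FOXA2 and FOXA3 stood at percentiles 84.6 and 84.2 of all genes tested at 12 h, and at percentiles 86.7 and 87.8 at 24 h, and FOXA1 at percentiles 70.3 and 74.1 at the same times.

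These changes reordered the forkhead genes. With Gln added FOXA1 made up 47.0%, 44.9% and 45.1% of the summed FOXA FPKM of a library. At 12 h it made up 30.0%, 27.4% and 31.5%, and at 24 h 24.6%, 27.1% and 27.2%. The mean share of FOXA1 was 45.7% ± 1.17 (SD, n = 3), 29.7% ± 2.07 and 26.3% ± 1.5, so FOXA1 went from the most to the least abundant FOXA transcript per length. FOXA2 took 27.9% ± 0.424, 36.2% ± 1.52 and 37.5% ± 1.37 of the sum, and FOXA3 took 26.5% ± 1.34, 34.1% ± 0.691 and 36.3% ± 1.52. The FOXA1 to FOXA2 ratio was 1.60 to 1.68 with Gln added, 0.728 to 0.910 at 12 h and 0.644 to 0.758 at 24 h. The FOXA1 to FOXA3 ratio went from 1.62 to 1.88 with Gln added to 0.786 to 0.932 at 12 h and 0.658 to 0.786 at 24 h. In all 6 deprived libraries both ratios were under 1. The summed FOXA FPKM was 54.9 ± 0.498 under Gln added, and 63.8 ± 0.836 and 67.5 ± 1.35 after 12 h and 24 h, and the groups did not overlap (two-sided exact permutation p = 0.1 for each pair of groups, the smallest that 3 libraries against 3 allow).

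**Figure D2:**
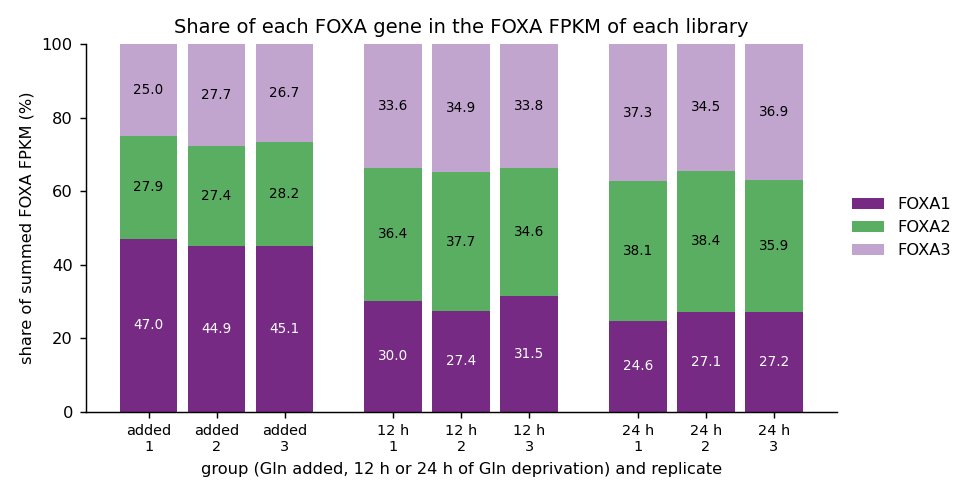
Share of FOXA1, FOXA2 and FOXA3 in the summed FOXA FPKM of each library, in percent on the y axis and with 1 stacked bar for each library on the x axis. FOXA1 took 44.9% to 47.0% with Gln added and 24.6% to 31.5% in the deprived libraries.

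Promoter sequence before the RefSeq start is shown for the forkhead genes because they moved apart, and it could be read for FOXA1 and FOXA3. Windows of 250 bases before each start (RefSeq, GRCh38.p14) were searched on both strands for 7 motifs, whose share among all 35116 promoters of the table follows. TGTTTAC and TGTTTGC, both forkhead motifs, were in 2.98% and 3.23%, the HNF4 motif CAAAGTCCA in 0.325%, the HNF6 motif ATTGATT in 1.98%, the NR5A2 motif CAAGGTCA in 1.14%, the AP-1 motif TGAGTCA in 4.2% and the amino acid response motif TGATGNAA in 3.14%. A match is a run of letters and was not tested for binding. The stretches printed leave out bases that GENCODE v44 places in an exon, and capitals mark motif matches, which did not overlap each other. FOXA1 is on the minus strand of chromosome 14, and the 151 bases shown lie at chr14:37595349-37595499. FOXA3 is on the plus strand of chromosome 19, and its 134 bases lie at chr19:45864192-45864325.
FOXA1: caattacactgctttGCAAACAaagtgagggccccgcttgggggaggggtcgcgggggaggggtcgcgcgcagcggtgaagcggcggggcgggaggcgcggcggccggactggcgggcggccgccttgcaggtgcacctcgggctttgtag
FOXA3: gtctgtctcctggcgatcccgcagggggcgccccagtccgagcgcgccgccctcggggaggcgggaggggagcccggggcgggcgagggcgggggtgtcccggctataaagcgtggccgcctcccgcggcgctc

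The FOXA1 window held 1 match, a forkhead motif read on its reverse strand as GCAAACA, 235 bases before the start. The FOXA3 window held no match to the 7 motifs, which says only that these letters are not there. Both windows were rich in G and C, with 67.2% in FOXA1 and 75.2% in FOXA3, at percentiles 73.7 and 90.7 of all promoters, whose median was 58%. They held 26 and 28 CpG dinucleotides. Both windows lie inside the genes as GENCODE v44 places them, which start at chr14:37596059 and chr19:45863989. Bases before those outermost starts were not searched. For FOXA2, HNF4G and PROX1 no promoter sequence is printed.

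HNF4A, the most abundant member, moved little. It stood at 56.0, 56.1 and 55.9 FPKM with Gln added, a spread of 0.225% (coefficient of variation). It read 59.5, 62.6 and 56.9 FPKM at 12 h and 54.5, 51.6 and 51.9 FPKM at 24 h. All 12 h libraries lay above and all 24 h libraries below the control libraries, by a small margin. Neither difference passed the test: the log2 fold change was 0.09 (95% interval -0.00018 to 0.18, adjusted p = 0.0781) at 12 h and -0.09 (-0.18 to 0.00054, adjusted p = 0.075) at 24 h. The 12 h rise passed it without 12 h replicate 3 (0.12, adjusted p = 0.0226) and with libraries rescaled to the same total (0.12, adjusted p = 0.0188). The 24 h value passed it without 12 h replicate 3 (adjusted p = 0.047) or without 24 h replicate 1 (-0.11, adjusted p = 0.0364). From 12 h to 24 h HNF4A fell by 0.18 ± 0.040 (SE) on the log2 scale (adjusted p = 0.0115), to 0.883 of its 12 h mean, and that call held in all 19 alternatives tried.

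HNF4G, the paralog that is more prominent in gut than in liver, was expressed at a small fraction of HNF4A. It stood at 4.27, 3.96 and 4.15 FPKM with Gln added, at 4.96, 4.54 and 4.93 FPKM at 12 h and at 4.0, 4.69 and 4.44 FPKM at 24 h. The 12 h libraries were all above the control libraries, and the 24 h libraries overlapped both. The 12 h rise was 0.22 ± 0.070 (SE, adjusted p = 0.0203), a call that was lost without Gln added replicate 2 (adjusted p = 0.0721), without 12 h replicate 1 (adjusted p = 0.067) or without 12 h replicate 3 (adjusted p = 0.0568). At 24 h the difference from Gln added was 0.08 (95% interval -0.07 to 0.23, adjusted p = 0.334). HNF4A made up 93.1% ± 0.255 (SD, n = 3) of the summed HNF4 FPKM with Gln added, and 92.5% ± 0.627 and 92.3% ± 0.769 after 12 h and 24 h, shares that overlapped between groups.

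HNF4A has a start far upstream, whose transcripts are known from gut and pancreas, and a downstream start used in adult liver, 45540 bases apart. They are shown because the FPKM of a gene adds up transcripts from both, so the values above cannot say which start was used. Both windows are of 250 bases on the plus strand of chromosome 20 (RefSeq, GRCh38.p14), at chr20:44355449-44355698 and chr20:44400989-44401238, and neither overlaps an annotated exon. Capitals mark motif matches.
HNF4A upstream start: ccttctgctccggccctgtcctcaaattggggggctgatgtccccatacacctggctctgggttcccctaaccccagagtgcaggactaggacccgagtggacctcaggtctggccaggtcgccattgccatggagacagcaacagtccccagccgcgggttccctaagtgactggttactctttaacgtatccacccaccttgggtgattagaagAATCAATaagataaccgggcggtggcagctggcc
HNF4A downstream start: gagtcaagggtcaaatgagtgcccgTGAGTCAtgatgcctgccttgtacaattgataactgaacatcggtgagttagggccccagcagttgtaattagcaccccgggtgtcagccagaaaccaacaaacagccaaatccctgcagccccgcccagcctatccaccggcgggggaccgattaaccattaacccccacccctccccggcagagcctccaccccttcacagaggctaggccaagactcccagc

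The upstream window held 1 match, to the HNF6 motif read in reverse as AATCAAT, 34 bases before the start. The downstream window held 1 match, an AP-1 motif 225 bases before the start. Their G and C content was 58.4% and 58%, at the median of all promoters.

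NR1H4, the bile acid receptor, rose at both times and more at 12 h. It stood at 14.4, 14.3 and 14.8 FPKM with Gln added. It read 19.4, 20.02 and 20.6 FPKM at 12 h and 17.2, 17.6 and 18.2 FPKM at 24 h. No pair of groups overlapped, with 24 h between the control and 12 h libraries. The log2 fold change was 0.46 ± 0.041 (SE) at 12 h (adjusted p = 4.22e-06) and 0.28 ± 0.041 at 24 h (adjusted p = 0.000123), which is 1.38-fold and 1.22-fold. The fall from 12 h to 24 h, by 0.18 ± 0.041 (adjusted p = 0.012), held in all 19 alternatives. NR1H4 stood at percentile 75.5 of absolute fold change at 12 h and at percentile 49.8 at 24 h.

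NR5A2, which binds DNA as a monomer, was the least abundant member with Gln added, at 3.32, 3.62 and 3.8 FPKM. It read 4.53, 4.53 and 4.90 FPKM at 12 h and 4.74, 4.76 and 5.16 FPKM at 24 h. All deprived libraries were above all control libraries, and the deprived groups overlapped. The rise was 0.37 ± 0.067 (SE) at 12 h (adjusted p = 0.000712) and 0.44 ± 0.067 at 24 h (adjusted p = 0.000179), or 1.30-fold and 1.36-fold. The step between the times was 0.07 (95% interval -0.08 to 0.22, adjusted p = 0.51).

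The promoters of NR1H4 and NR5A2 are shown because both genes rose. The NR1H4 window is at chr12:100503110-100503359 and the NR5A2 window, before the downstream of its 2 RefSeq starts, is at chr1:200042341-200042590, both of 250 bases on the plus strand (RefSeq, GRCh38.p14) and outside annotated exons. The NR1H4 window lies inside the gene as GENCODE v44 places it, which starts at chr12:100473708. Bases before that outermost NR1H4 start were not searched. The NR5A2 starts are 14881 bases apart and cannot be separated in a value per gene. Capitals mark motif matches.
NR1H4: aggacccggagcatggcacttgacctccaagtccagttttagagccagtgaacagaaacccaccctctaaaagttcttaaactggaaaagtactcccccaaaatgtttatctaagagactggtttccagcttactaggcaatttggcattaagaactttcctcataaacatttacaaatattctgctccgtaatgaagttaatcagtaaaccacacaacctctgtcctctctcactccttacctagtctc
NR5A2 downstream start: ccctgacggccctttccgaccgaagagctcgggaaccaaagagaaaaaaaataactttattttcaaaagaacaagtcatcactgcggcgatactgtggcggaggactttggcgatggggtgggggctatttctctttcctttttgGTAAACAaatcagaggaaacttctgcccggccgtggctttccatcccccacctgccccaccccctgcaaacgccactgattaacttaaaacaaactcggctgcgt

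The NR1H4 window held no match to these motifs, and so it has no capitals. The NR5A2 window held 1, a forkhead motif read in reverse as GTAAACA 105 bases before the start. A window before the upstream NR5A2 start held 1 AP-1 match, 158 bases before that start. G and C made up 42% of the NR1H4 window and 50.8% of the NR5A2 window, and the NR1H4 window held 2 CpG dinucleotides where the NR5A2 window held 13. The window before the upstream NR5A2 start had 36% G and C and 0 CpG dinucleotides, below both.

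PROX1, the corepressor among the members, did not pass the test in any comparison, and its libraries lay farther apart in the deprived groups. It stood at 17.1, 16.9 and 16.9 FPKM with Gln added, at 16.3, 17.7 and 18.9 FPKM at 12 h and at 15.0, 19.3 and 17.4 FPKM at 24 h. The 24 h libraries bracketed all control libraries. The coefficient of variation was 0.694%, 7.2% and 12.4%. The log2 fold change was 0.05 (95% interval -0.13 to 0.23, adjusted p = 0.603) at 12 h and 0.01 (-0.17 to 0.19, adjusted p = 0.892) at 24 h, so changes of a size like that of NR1H4 at 12 h lay outside these intervals. The sign of the 24 h value depended on the libraries, with -0.07 without 24 h replicate 2.

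**Figure D3:**
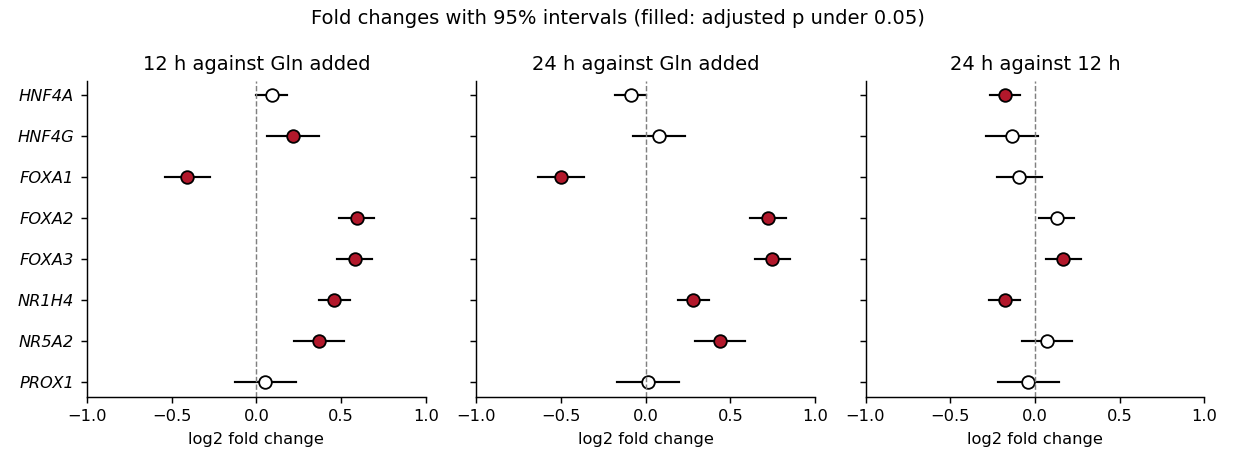
Log2 fold change of each member in the 3 comparisons, with points for the estimate, lines for its 95% interval and filled points where the adjusted p was under 0.05. FOXA2 and FOXA3 had the largest rises among the members at both times and FOXA1 the only called falls against Gln added.

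Directly between the times, 3 of 8 members were called, against 20.1% of all genes tested, with FOXA3 higher (9.57% of all genes were) and HNF4A and NR1H4 lower (10.5%). The median log2 difference of the members from 12 h to 24 h was -0.06, beside 0.02 over all genes. Counting groups that did not overlap gave a like picture without a test. At 12 h 6 members lay above and 1 below the control libraries, where 32.8% and 34.4% of all genes did and 67.2% in either direction. At 24 h 4 lay above and 2 below, against 35.7% and 34.1% of all genes and 69.9% in either direction. Between the times 1 member was higher and 2 lower, against 17.5% and 16.9% of all genes and 34.4% in either direction.

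Ordered by FPKM, a level per length, HNF4A was first in every group, at percentiles 90.9 to 92 of the genes tested. With Gln added FOXA1 followed and PROX1 next, each separate from its neighbours, followed by FOXA2, FOXA3 and NR1H4, whose libraries overlapped in that order, and then by HNF4G and NR5A2. At 12 h FOXA2 and FOXA3 followed HNF4A, with no overlap between them, and NR1H4, FOXA1 and PROX1 overlapped as neighbours. At 24 h FOXA2 and FOXA3 overlapped, FOXA1, NR1H4 and PROX1 followed with overlap, and NR5A2 stood above HNF4G with none. HNF4G was above NR5A2 with Gln added, overlapped it at 12 h and was below it at 24 h.

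The genes whose log2(FPKM + 0.1) followed each member most closely over the 9 libraries are given as a description, since libraries of a group share their treatment and the groups set most of the correlation. HNF4A was followed most closely by RALY (Pearson r = 0.977), an RNA-binding protein gene that went from 58.6 to 62.2 and 53.2 FPKM. FOXA1 was followed by CEP78 (r = 0.995), a centrosomal protein gene that went from 4.39 to 2.62 and 2.37 FPKM, and by C2CD5 (r = 0.992). FOXA2 was followed by RAB35 (r = 0.999), a small GTPase gene of membrane traffic, at 17.2, 25.0 and 27.2 FPKM, and by TRIM8 (r = 0.998). FOXA3 was followed by SCARF2 (r = 0.997) and ZSWIM5 (r = 0.997). NR1H4 was followed by GCLC (r = 0.992), the catalytic subunit of glutamate-cysteine ligase in glutathione synthesis, at 49.5, 79.9 and 67.9 FPKM, and by UBE2D2 (r = 0.991). NR5A2 was followed by CCDC174 and IQCB1 (r = 0.990 for each). For the members that moved least the closest genes were less close, with DBF4B second for HNF4A (r = 0.961), LOC107985080 and ZNF706 for HNF4G (r = 0.950 and 0.940) and DR1 and HELZ for PROX1 (r = 0.953 and 0.916).

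The other transcription factors of the hepatocyte network split by direction. Of 25 listed, 23 were tested, and 7 rose and 3 fell at 12 h, while 9 rose and 9 fell at 24 h. Their median log2 fold change was 0.02 at both times, beside -0.02 and 0.01 over all genes. NR0B2, the repressor SHP, had the largest rise at both times. It stood at 53.7, 51.7 and 51.9 FPKM with Gln added, at 90.7, 92.0 and 81.8 FPKM at 12 h and at 121, 116 and 110 FPKM at 24 h. Its 3 groups did not overlap, and its log2 fold change was 0.75 (adjusted p = 5.98e-07) at 12 h and 1.13 (adjusted p = 1.73e-08) at 24 h. ESRRA, an orphan receptor of mitochondrial gene programmes, rose by 0.66 at 12 h (adjusted p = 1.23e-05), and NR2F1, an orphan receptor of the COUP-TF family, by 0.78 at 24 h (adjusted p = 1.07e-06). Beside the counts of this list and those below, 29.1% of all genes tested were called higher at 12 h and 33% at 24 h. The shares called lower were 31% and 31.7%.

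The falls were led by ONECUT1, also called HNF6, and CEBPA. ONECUT1 went from 4.27, 4.69 and 4.33 FPKM with Gln added to 2.54, 2.83 and 3.13 FPKM at 12 h and 1.96, 2.52 and 2.29 FPKM at 24 h, a log2 fold change of -0.63 (adjusted p = 0.000302) and -0.95 (adjusted p = 1.22e-05). CEBPA, a leucine zipper factor of hepatocyte maturity, stood at 69.8, 70.7 and 69.7 FPKM with Gln added. It read 59.2, 58.4 and 53.9 FPKM at 12 h and 48.1, 44.9 and 44.5 FPKM at 24 h, so its groups stepped down without overlap. Its log2 fold change was -0.29 (adjusted p = 0.000197) and -0.61 (adjusted p = 6.14e-07). RXRA, the dimer partner of NR1H4, differed by -0.01 on the log2 scale at 12 h (adjusted p = 0.819) and fell by 0.18 at 24 h (adjusted p = 0.00336). From 12 h to 24 h 10 of the 23 were called, 2 higher (9.57% of all genes were) and 8 lower (10.5%), led down by NR2F6 (-0.39, adjusted p = 0.000168). That count was 6 without 12 h replicate 1, 5 without 12 h replicate 2 and 5 in a fit of the deprived groups alone.

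**Figure D4:**
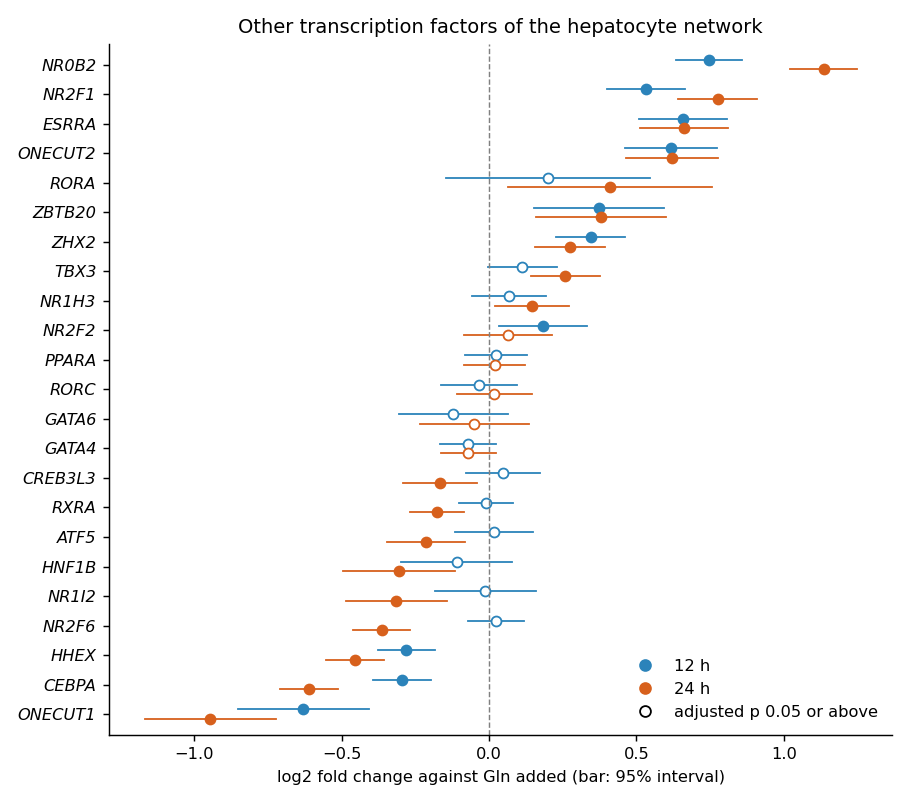
Log2 fold change against Gln added of the 23 other transcription factors tested, at 12 h and at 24 h, with 95% intervals as lines and open points where the adjusted p was 0.05 or above. NR0B2, at 0.75 and 1.13, was highest in both, and ONECUT1, at -0.63 and -0.95, lowest in both.

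Coregulators that these receptors recruit rose more often than they fell. Of 16 listed, 15 were tested, with 9 higher and 2 lower at 12 h and 10 higher and 3 lower at 24 h, and medians of 0.33 and 0.32. PPARGC1A, the fasting-induced coactivator PGC-1alpha that acts with HNF4A and FOXO1, stood at 1.15, 1.16 and 1.16 FPKM with Gln added. It read 2.61, 2.62 and 3.07 FPKM at 12 h and 3.65, 4.0 and 4.09 FPKM at 24 h. That is a log2 fold change of 1.19 (adjusted p = 7.18e-07) and 1.67 (adjusted p = 3.48e-08). CREBBP, a histone acetyltransferase, rose by 1.00 (adjusted p = 7.46e-08) and 0.98 (adjusted p = 5e-08). KDM1A, a histone demethylase, fell by 0.56 on the log2 scale at 12 h (adjusted p = 2.36e-07) and by 0.68 at 24 h (adjusted p = 3.44e-08), and PRMT1, an arginine methyltransferase, fell by 0.19 (adjusted p = 0.0026) and 0.30 (adjusted p = 0.000101).

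The textbook targets of HNF4A mostly fell. Of 21 listed, 17 were tested, with 2 higher and 11 lower at 12 h, 2 higher and 12 lower at 24 h, and medians of -0.20 and -0.26. APOC3, an apolipoprotein gene, went from 193, 208 and 203 FPKM with Gln added to 128, 126 and 108 FPKM at 12 h and 97.0, 102 and 108 FPKM at 24 h, a log2 fold change of -0.74 (adjusted p = 3.56e-06) and -0.97 (adjusted p = 3e-07). OTC, a urea cycle enzyme gene, fell by 1.60 on the log2 scale at 24 h (adjusted p = 6.38e-05), on 11 to 76 fragments a library. G6PC1, the last enzyme of glucose production, went against the list with 1.66, 1.86 and 1.69 FPKM with Gln added, 3.45, 3.24 and 3.40 FPKM at 12 h and 4.67, 5.49 and 5.18 FPKM at 24 h. Its log2 fold change was 0.91 (adjusted p = 2.6e-06) and 1.5 (adjusted p = 4.07e-08). F7, coagulation factor VII, rose by 0.64 (adjusted p = 3.42e-05) and 0.77 (adjusted p = 6.5e-06). Of the 10 hepatocyte markers, which share members with this list, 1 rose and 7 fell at 12 h and 1 rose and 6 fell at 24 h, and the part of such shared genes in the list's counts was not tested.

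Targets of the forkhead factors moved in both directions, with IGFBP1, TAT and G6PC1 higher at both times. Of 12 listed, 11 were tested, and 3 rose and 7 fell at each time, with medians of -0.19 and -0.20. Among those tested, TTR, SERPINA1, APOA1, AGT, G6PC1 and LIPC are also on the list of HNF4A targets, so these counts partly repeat it. IGFBP1, an insulin-repressed binding protein of IGF, had the largest rise of any list, from 98.0, 93.7 and 95.1 FPKM with Gln added to 853, 818 and 816 FPKM at 12 h and 1196, 1117 and 1128 FPKM at 24 h. Its log2 fold change was 3.12 (adjusted p = 4.95e-12) and 3.58 (adjusted p = 1.15e-12). TAT, tyrosine aminotransferase, rose by 1.26 at 12 h (adjusted p = 1.25e-06). LIPC, hepatic lipase, fell by 0.47 (adjusted p = 0.000525) and APOA1 by 0.36 (adjusted p = 0.000157) on the log2 scale at 12 h. At 24 h CPS1, the entry enzyme of the urea cycle, fell by 0.54 (adjusted p = 1.5e-05) and AFP, a fetal plasma protein, by 0.51 (adjusted p = 9.23e-08).

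For NR1H4, all 10 targets tested of 14 listed were called at both times, 7 higher and 3 lower, with medians of 0.35 and 0.35. Of all genes tested, 60.2% were called in either direction at 12 h and 64.7% at 24 h. With voom on recovered fragments 6 targets were called higher and 3 lower at 24 h. UGT2B4, a glucuronidating enzyme for bile acids, stood at 0.784, 0.648 and 0.869 FPKM with Gln added, at 3.46, 3.73 and 4.14 FPKM at 12 h and at 2.58, 3.72 and 3.46 FPKM at 24 h. Its rise was 2.16 (adjusted p = 4.28e-07) and 1.94 (adjusted p = 6.64e-07) on the log2 scale, from 55 to 75 fragments a library with Gln added. MAFG, a repressor of bile acid synthesis genes, rose by 1.35 (adjusted p = 1.1e-09) and 1.19 (adjusted p = 1.85e-09). NR0B2, given above, is on this list too. SDC1, a heparan sulphate proteoglycan, fell by 0.54 (adjusted p = 1.88e-06) and 0.69 (adjusted p = 1.86e-07).

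The basolateral bile acid exporter is a pair of subunits that parted. SLC51A stood at 3.47, 4.62 and 3.91 FPKM with Gln added, at 2.48, 3.01 and 3.32 FPKM at 12 h and at 1.74, 1.72 and 2.07 FPKM at 24 h. It fell by 1.07 on the log2 scale at 24 h (adjusted p = 2.96e-05) and by 0.43 at 12 h (adjusted p = 0.0131), and the 12 h call was lost without Gln added replicate 2 (-0.33, adjusted p = 0.0581) or 12 h replicate 1 (-0.32, adjusted p = 0.0544). SLC51B stood at 1.90, 1.75 and 2.30 FPKM with Gln added, at 2.64, 2.56 and 2.51 FPKM at 12 h and at 2.55, 2.19 and 2.51 FPKM at 24 h, on 84 to 127 fragments a library. It rose by 0.36 at 12 h (adjusted p = 0.00955) and by 0.28 at 24 h (adjusted p = 0.0322), where the call was lost without Gln added replicate 1 (adjusted p = 0.0913), Gln added replicate 2 (adjusted p = 0.124), 24 h replicate 1 (adjusted p = 0.0913) or 24 h replicate 3 (adjusted p = 0.0928). That 24 h call was also lost with no filter on low values (adjusted p = 0.0766), in a fit of the groups compared alone (adjusted p = 0.0576) and with voom on recovered fragments (adjusted p = 0.117). FGF19, the enterohepatic hormone, and ABCB11, the canalicular bile salt pump, were under the filter, with 4 to 24 fragments and 0 to 4 fragments a library. KNG1 and FETUB, the other listed NR1H4 targets under the filter, had 29 to 94 and 5 to 27 fragments a library. Untested, both lay below all control libraries in every deprived library. FGF19 lay above them at 12 h only, and ABCB11 overlapped them at both times.

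Targets of NR5A2 and the bile acid genes fell more often than they rose. Of 14 NR5A2 targets 11 were tested, with 3 higher and 6 lower at 12 h, 4 higher and 7 lower at 24 h, and medians of -0.24 and -0.44. PLK3, a stress-activated kinase, rose by 0.84 (adjusted p = 2.4e-06) and 1.29 (adjusted p = 6.7e-08). CYP7A1, the rate-limiting enzyme of bile acid synthesis, stood at 2.49, 1.95 and 2.07 FPKM with Gln added. It read 1.01, 1.17 and 1.13 FPKM at 12 h and 1.26, 1.13 and 1.44 FPKM at 24 h, below the control libraries in all 6 deprived libraries. Its log2 fold change was -0.91 (adjusted p = 8.29e-05) and -0.72 (adjusted p = 0.000357). ABCG8, a sterol exporter subunit, fell by 0.63 on the log2 scale at 12 h (adjusted p = 8.62e-05), and CCNE1, cyclin E1, by 0.84 at 24 h (adjusted p = 1.53e-07).

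Among 22 genes of bile acid synthesis and transport, 14 were tested, with 3 higher and 9 lower at 12 h, 3 higher and 10 lower at 24 h, and medians of -0.23 and -0.26. HSD3B7 and AKR1D1, which act on the sterol ring in bile acid synthesis, both fell. At 12 h HSD3B7 fell by 0.82 on the log2 scale (adjusted p = 3.22e-07), and at 24 h AKR1D1 fell by 0.89 (adjusted p = 2.3e-08). CYP8B1, the enzyme that sets the cholic acid share, was under the filter at 0.0824 to 0.404 FPKM. Of the 3 ABCC efflux pumps on the list, ABCC2 rose by 0.43 (adjusted p = 6.6e-07) at 12 h and ABCC3 by 0.40 (adjusted p = 1.07e-05) at 24 h. ABCC4 differed by 0.04 at 12 h (adjusted p = 0.524) and fell by 0.27 on the log2 scale at 24 h (adjusted p = 0.000784). The lists share genes, as NR0B2 is on 3 of them and CYP7A1 on 2, so their counts are not separate evidence.

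**Figure D5:**
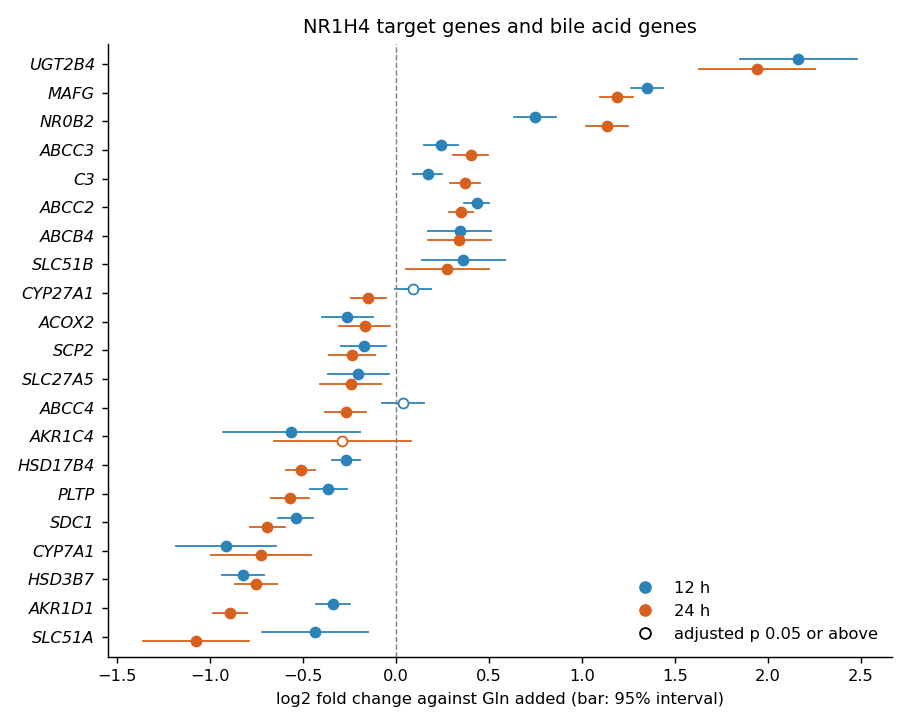
Log2 fold change against Gln added of the tested NR1H4 targets and bile acid genes, at 12 h and at 24 h, with 95% intervals as lines and open points where the adjusted p was 0.05 or above. UGT2B4, MAFG and NR0B2 were highest at both times, and SLC51A, at -1.07, was lowest at 24 h.

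Noncoding neighbours of the members were followed as well. HNF4A-AS1, an antisense transcript at the HNF4A locus, stood at 11.6, 12.4 and 11.2 FPKM with Gln added, at 10.8, 11.1 and 9.82 FPKM at 12 h and at 6.63, 7.29 and 7.05 FPKM at 24 h. It fell by 0.74 on the log2 scale at 24 h (adjusted p = 1.75e-06) and by 0.59 from 12 h to 24 h (adjusted p = 0.000111), beside the -0.09 and -0.18 of HNF4A. At 12 h its -0.15 did not pass the test (adjusted p = 0.0564), but it did without Gln added replicate 3 (adjusted p = 0.0479), 12 h replicate 2 (adjusted p = 0.0441) or 24 h replicate 1 (adjusted p = 0.0459), and with voom on recovered fragments (adjusted p = 0.0322). In GENCODE v44 it lies on the minus strand at chr20:44372746-44395706, inside the HNF4A gene but with 0 exonic bases in common. That model of HNF4A-AS1 has 912 exonic bases, whereas its FPKM rest on a length of 5708 bases. Whether the bases counted for it overlap HNF4A exons was not tested. LINC00261, next to FOXA2 on chromosome 20, stayed between 25.2 and 28.4 FPKM in all 9 libraries while FOXA2 rose, with log2 fold changes of -0.07 (adjusted p = 0.174) and -0.04 (adjusted p = 0.428). PROX1-AS1, with 18 to 41 fragments a library, was under the filter.

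The members lie on 6 chromosomes (GENCODE v44, GRCh38). HNF4A spans chr20:44355699-44432845 on the plus strand and FOXA2 chr20:22580998-22585455 on the minus strand. HNF4G spans chr8:75407914-75566834, FOXA3 chr19:45863989-45873797, NR1H4 chr12:100473708-100564414, NR5A2 chr1:200027614-200177420 and PROX1 chr1:213983181-214041510, all on the plus strand, and FOXA1 spans chr14:37589552-37596059 on the minus strand. In GENCODE v44 little of their exonic sequence is shared with other genes. Strand use in counting is not settled by the sources, and the lengths behind the FPKM differ from these models. HNF4A had a length of 7373 bases, where GENCODE v44 has 10167 exonic bases, and NR1H4 had 4651, where it has 3628. Overlap in the models counted was not tested. FOXA1 shared 0.362% of its exonic bases with TTC6 on the opposite strand, PROX1 1.83% with PROX1-AS1 on the opposite strand and HNF4A 0.826% with MIR3646 on its own strand. The other 5 members shared none.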

How the data were processed

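Gene expression was measured by RNA-seq of HepG2 cells in 3 groups of 3 libraries. The deposited values are FPKM, 1 per gene in each library, made by the authors. Their methods name STAR, GRCh38 and DESeq2, and the submitters' processing notes name HTSeq, GRCh38 and R 3.2.0. The annotation is not given in the sources used here. The labels and the methods name different library kits, so strand use in counting is unsettled. All 9 columns were matched to libraries by the labels.

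Whole fragments were recovered from the steps of the FPKM for 100% of the 22587 genes (tolerance 0.02 of a fragment) and set the depths given. No pair of replicates agreed within sampling noise (chi-square per degree of freedom 2.88 to 14.38). Nothing states separate cultures, so p-values measure the spread between libraries, which may be technical. Expression was tested with limma 3.58.1 in R 4.3.3 (lmFit, eBayes with a trend, 1 fit of the 3 groups) on log2(FPKM + 0.1), which understates changes of low genes, for the 11880 genes whose mean over the 9 libraries reached 0.5 FPKM, with Benjamini-Hochberg adjustment over all genes tested and a threshold of 0.05. The procedure was tested on simulated data in which few of the genes changed, unlike in these data, so no support for the calls is drawn from it. Shares and sums were compared by two-sided exact permutation tests.

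The members and the gene lists were chosen with earlier results of these data known. Named genes are the members, per list and comparison the 2 largest called changes in each direction (not each is repeated in the text), a set of direct targets and partners (NR0B2, FGF19, ABCB11, SLC51A, SLC51B, CYP7A1, CYP8B1, CEBPA, RXRA and PPARGC1A; 1 more gene, also on 2 of the lists, is not reported here and is left out of their counts), and the 2 genes most correlated with each member. Promoters came from RefSeq (GRCh38.p14), with 7 windows for 5 of the 8 members, and positions from GENCODE v44 by gene symbol. The alternatives were pseudocounts of 1 and 0.01, no filter, a filter at 1 FPKM, 2 other scalings, only the groups compared, a replicate block, eBayes without a trend, voom on recovered fragments and leaving out each library.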

Additional observations from a re-analysis of the deposited data

Results flagged for a closer look

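For 3 members the change from Gln added differed between 12 h and 24 h by the direct test of 24 h against 12 h (limma, adjusted over all genes tested). HNF4A had a log2 difference of -0.178 (adjusted p = 0.0115), between a mean of 59.7 FPKM at 12 h and of 52.7 FPKM at 24 h, on either side of the 56.0 FPKM with Gln added. NR1H4 also had -0.178 (adjusted p = 0.012), with all 3 libraries at 24 h lower than all 3 at 12 h and all of them above Gln added. FOXA3 had 0.167 (adjusted p = 0.028), with all 3 libraries at 24 h higher than all 3 at 12 h. The calls for HNF4A and NR1H4 held in all 19 alternatives, and that for FOXA3 in 14 of 19.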

How the results depend on the processing

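Of 456 recomputed fold changes of the members, 439 kept their direction and their side of the threshold. FOXA1, FOXA2, FOXA3, NR1H4 and NR5A2 kept both against Gln added at both times in all 19 alternatives. The number of members called lower at 24 h was 1 to 2 over the fits that left out a library, with HNF4A added without 12 h replicate 3 or 24 h replicate 1. The number called higher from 12 h to 24 h was 0 to 1 over these fits and 0 with median-ratio scaling, where FOXA3 was lost (0 without 12 h replicate 1, 12 h replicate 2 or 24 h replicate 1). PROX1, never called, changed sign from Gln added to 24 h with median-ratio scaling (-0.00252) and over the fits that left out a library (-0.0697 to 0.11), and so it did from 12 h to 24 h (-0.12 to 0.0577, above 0 without 12 h replicate 3, at 0.0113, and without 24 h replicate 1). The cause of these changes was not tested. Of the fold changes of named list genes, 1431 were unchanged in call, 25 lost it and 5 gained it. Same-numbered libraries deviated from their group means with r from -0.11 to 0.50, over 0.1 in 5 of 9 pairs. Differently numbered libraries had r from -0.614 to 0.369. Whether the numbers mark pairs is not settled by these values, and the main fit did not pair libraries. A replicate block changed no member's call (6 members called at 12 h, 5 at 24 h), moved the genes called at 12 h from 7147 to 7341, and called HNF4A-AS1 at 12 h (adjusted p = 0.0304). Of the genes called between 12 h and 24 h, 47.7% were higher as deposited, 33.4% with median-ratio scaling and 54.3% with the same total.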
